A study of Homo sapiens with 18 samples.

Results

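The accessible chromatin around 9 genes of the bone morphogenetic protein (BMP) system was described in a human colon fibroblast line: the secreted antagonists GREM1, NOG, CHRD and FST, the pseudoreceptor BAMBI, and the ligands BMP2, BMP4, BMP5 and BMP7. A peak of the bulk ATAC-seq table belonged to a gene when it overlapped the gene body of the GENCODE annotation or the 20 kb on either side of it. This rule used no measured value and found 123 of the 334857 peaks. BMP7 held 41 of them, CHRD and BAMBI held 13 each, BMP5 held 12, BMP4 held 11, GREM1 and FST held 9 each, NOG held 8 and BMP2 held 7. Peaks are named here by their gene and the distance of the peak centre from the gene start along the direction of transcription.

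The cells were Ccd18-Co, an established line of human colon fibroblasts, and all 18 libraries came from this line. They formed 3 groups of 6. The unstimulated cells received neither cytokines nor modulator, as far as the labels state. The other cells went through 3 pulses of TNF, OSM and IL-17A at 10 ng/ml each and IL-1B at 0.1 ng/ml, each pulse lasting 72 h in serum-free medium and followed by 96 h of recovery in growth medium. After a rest of 1 week they were given either the solvent DMSO or belinostat, an inhibitor of histone deacetylases, at 250 nM for 5 days. Nuclei were taken 2 weeks after that treatment. No group received belinostat without cytokines, so what belinostat did to cells that had met no cytokine was not measured. The labels also name no solvent for the unstimulated cells. By the labels, cytokines and solvent therefore cannot be told apart in a comparison of DMSO with unstimulated cells. The study's methods describe the same final DMSO dilution across treatment groups. They do not say whether these unstimulated libraries were among those groups. The labels do not say whether the 6 libraries of a group came from separate cultures, so p-values measure only the spread between these libraries, which may be technical.

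BMP ligands are secreted dimers of the TGF-beta superfamily that bind pairs of type I and type II receptors, after which SMAD1, SMAD5 and SMAD9 carry the signal to the nucleus and ID genes are switched on. Gremlin 1, noggin and chordin bind the ligands outside the cell and keep them from their receptors, follistatin binds activins and some BMPs, and BAMBI is a receptor-like membrane protein without kinase activity. In the colon the antagonists are made by fibroblasts and muscle cells near the crypt base, where low BMP activity favours stem cells, while ligands predominate towards the surface.

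The sequences below are from the hg38 reference and cover some of the stretches named in the results. They comprise the GREM1 promoter and the GREM1 peak before it, which were less open after belinostat. The distal GREM1 peak at -12.7 kb was less open in DMSO than in unstimulated cells, by a call that was not firm. The firmer distal GREM1 peak, at -13.3 kb, is not printed. The stretches of BMP4 and BMP5 had the largest called falls between belinostat and unstimulated cells. The BAMBI promoter is shown because its peak had the lowest adjusted p of the promoter peaks in the cytokine contrast. Capitals mark matches to 8 short words searched on both strands: the NF-kB word, TGANTCA for AP-1, TTGCNNAA for C/EBP, GGCGCC for a GC-rich SMAD site, GGAATG for TEAD, TGTGGT for RUNX, TGTTTAC for FOX and GACCNCCCA for GLI.
GREM1 promoter, 250 bases upstream of the start, chr15:32717754-32718003, plus strand, from RefSeq (GRCh38.p14): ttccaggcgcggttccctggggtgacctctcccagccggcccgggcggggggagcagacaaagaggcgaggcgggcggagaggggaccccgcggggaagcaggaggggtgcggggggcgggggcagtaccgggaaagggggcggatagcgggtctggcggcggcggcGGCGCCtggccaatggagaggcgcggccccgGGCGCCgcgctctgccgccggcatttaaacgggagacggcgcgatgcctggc
GREM1 -2.3 kb, central 300 bases, chr15:32715560-32715859, plus strand: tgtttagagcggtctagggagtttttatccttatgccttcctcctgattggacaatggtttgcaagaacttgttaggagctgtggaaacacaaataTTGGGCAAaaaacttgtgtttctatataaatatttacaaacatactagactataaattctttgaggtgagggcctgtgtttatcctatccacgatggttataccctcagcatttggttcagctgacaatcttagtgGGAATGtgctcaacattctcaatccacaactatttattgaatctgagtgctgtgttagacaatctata
GREM1 -12.7 kb, whole peak, chr15:32705192-32705353, plus strand: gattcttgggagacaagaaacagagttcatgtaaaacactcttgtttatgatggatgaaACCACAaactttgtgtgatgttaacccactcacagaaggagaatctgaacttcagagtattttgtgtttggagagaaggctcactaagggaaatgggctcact
BMP4 -10.2 kb, central 300 bases, chr14:53968780-53969079, plus strand: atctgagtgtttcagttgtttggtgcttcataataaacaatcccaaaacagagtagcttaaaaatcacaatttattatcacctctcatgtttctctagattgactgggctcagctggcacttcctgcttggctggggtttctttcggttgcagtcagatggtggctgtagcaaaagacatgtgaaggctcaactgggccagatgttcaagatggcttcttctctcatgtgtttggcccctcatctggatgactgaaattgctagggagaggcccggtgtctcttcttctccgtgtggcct
BMP5 +49.7 kb, central 300 bases, chr6:55825724-55826023, plus strand: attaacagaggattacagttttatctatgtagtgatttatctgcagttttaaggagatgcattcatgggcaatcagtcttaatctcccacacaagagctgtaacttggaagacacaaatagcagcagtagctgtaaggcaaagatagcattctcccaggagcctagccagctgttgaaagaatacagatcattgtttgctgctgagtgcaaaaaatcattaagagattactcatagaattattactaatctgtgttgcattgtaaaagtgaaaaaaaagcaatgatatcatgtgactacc
BAMBI promoter, 250 bases upstream of the start, chr10:28677271-28677520, plus strand, from RefSeq (GRCh38.p14): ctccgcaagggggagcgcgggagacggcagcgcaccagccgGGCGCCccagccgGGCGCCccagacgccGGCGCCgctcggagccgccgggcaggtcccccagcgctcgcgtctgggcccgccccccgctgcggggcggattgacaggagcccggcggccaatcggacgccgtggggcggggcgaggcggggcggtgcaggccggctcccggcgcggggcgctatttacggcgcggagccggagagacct
The printed GREM1 promoter stretch held 2 GGCGCC words and that of BAMBI held 3, where 16.4% of 35116 RefSeq promoters of this length held at least 1. This word holds only G and C, and the 2 stretches had 76.8% and 81.2% of these bases, against a median of 58% over all those promoters. The shares were not matched for base content. The GREM1 stretch covers only a part of the -0.2 kb peak. The central 300 bases of that peak (chr15:32717635-32717934) held 2 TEAD, 1 NF-kB and 1 GC-rich SMAD word. Such words stood in 21.3%, 1.44% and 4.72% of all peak windows. The GREM1 -2.3 kb window held 1 C/EBP and 1 TEAD word, and the -12.7 kb peak held 1 RUNX word, against 14.1%, 21.3% and 22.6% of all peak windows. In the central 300 bases of the GREM1 -13.3 kb peak stood 1 AP-1, 1 C/EBP and 2 RUNX words. AP-1 words stood in 17.8% of all peak windows. The BMP4 and BMP5 windows held none of the 8 words. A match describes letters and is not a binding site. Promoters of 6 of the 9 genes were in the RefSeq table; those of NOG, BMP2 and BMP7 are named only.

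The number of fragments in peaks ranged from 4661678 to 11352032 per library and was lowest in the belinostat group, at 4661678 to 6370845. Unstimulated replicate 6 stood apart, with no fragment in 11.3% of all peaks. The cell type was checked at promoter peaks of marker genes. In unstimulated cells 8 fibroblast markers had a median of 30.3 CPM per kb of peak. The medians were 3.69 for 5 epithelial, 2.13 for 4 endothelial, 2.48 for 4 leukocyte and 2.75 for 3 glial markers. The lists overlapped, as fibroblast markers ran from 7.33 (LUM) to 60.3, while the epithelial KRT8 stood at 26.3 and CDH1 at 9.0. LYZ had no peak. Smooth muscle markers, which fibroblasts share in part, had a median of 11.5 and reached 27.8 (ACTG2). Summed over the 8 fibroblast markers, the level was 243 to 284 CPM in unstimulated, 168 to 219 in DMSO and 152 to 237 in belinostat cells, and 6 of the 8 promoter peaks closed in the cytokine contrast and none passed the threshold in the belinostat contrast. Endothelial, leukocyte and glial sums stayed under 10 CPM in every library, and none of their promoter peaks passed in either of those contrasts, while 2 of 4 smooth muscle promoter peaks closed in the cytokine contrast. Between belinostat and unstimulated cells 6 of the 8 fibroblast and 1 of the 4 smooth muscle promoter peaks closed, 1 each of the endothelial, leukocyte and glial ones opened, and of the epithelial ones 1 opened and 1 closed. The part of these shifts in the results on the members was not tested. ATAC-seq of a bulk culture cannot separate fewer cells with an open site from less opening per cell.

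Accessibility was first read per locus, as the sum of the fragments in all peaks of a gene, fitted beside the sums of 19572 protein-coding genes. Values are CPM, fragment counts divided by the TMM-scaled library size, and a locus or peak is said to have changed when the Benjamini-Hochberg adjusted p of edgeR's quasi-likelihood test was under 0.05. Changes are log2 fold changes with their standard error. The cytokine contrast compared DMSO with unstimulated cells, the belinostat contrast compared belinostat with DMSO, and the third contrast compared belinostat with unstimulated cells. These contrasts share libraries, so their values are given side by side and no agreement between them is read.

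In the cytokine contrast BMP7 rose and BAMBI and BMP4 fell, so that 1 of 9 member loci was higher and 2 were lower. Over all loci 21% were higher and 15.9% lower, which leaves the members' share of falls near the background. Sums for BMP4 were 44.9 to 48.7 CPM in unstimulated cells with a median of 47.3, and 38.4 to 45.6 with a median of 39.5 in DMSO cells. All but the highest DMSO library lay below the unstimulated range, and the change was -0.21 ± 0.05 (SE; adjusted p = 0.00186).
BMP7 went the other way, from 49.3, 53.5 and 57.1 CPM (lowest, median, highest) in unstimulated cells to 53.9, 63.6 and 68.5 in DMSO cells. The groups overlapped, and the change was 0.22 ± 0.05 (adjusted p = 0.00301); with the scaling factors of the peaks in place of those of the loci it was 0.02 (adjusted p = 0.701). BAMBI fell by 0.16 ± 0.05 on the log2 scale (adjusted p = 0.0161), a call that was lost without DMSO replicate 4 (adjusted p = 0.0537). Adjusted p-values of the other 6 loci lay between 0.051 for CHRD and 0.786 for FST. CHRD passed as lower with the factors of the peaks (adjusted p = 0.000629) and with only the 2 groups compared (adjusted p = 0.0348). It also passed without unstimulated replicate 1 or 2 or belinostat replicate 1 or 5 (adjusted p from 0.0275 to 0.0488). Its -17.5 kb peak, at the starts of CLCN2 and POLR2H, held 273 to 767 fragments per library, beside 431 to 1147 for the whole CHRD sum.

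In the belinostat contrast no member locus passed the threshold in edgeR or in DESeq2, while 2.63% of all loci were higher and 5.38% lower. An unadjusted p under 0.05 was reached by 3 loci, 1 higher and 2 lower (2 loci in DESeq2). GREM1 had the lowest adjusted p of the 9 at 0.0866, with a log2 fold change of -0.22 ± 0.08. Its sum was 27.4, 31.5 and 33.4 CPM (lowest, median, highest) in unstimulated cells, 23.9, 29.2 and 32.8 in DMSO cells, and 19.6, 25.2 and 27.1 in belinostat cells. The DMSO and belinostat libraries overlapped, whereas every belinostat library was below every unstimulated one. Either of 2 choices brought the belinostat value past the threshold: leaving out DMSO replicate 1 (-0.27, adjusted p = 0.0344), and counting only peaks in the gene body and the 3 kb upstream (-0.37, adjusted p = 0.01).

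Between belinostat and unstimulated cells GREM1, BAMBI and BMP4 were lower and no member locus was higher, where 27.3% of all loci were lower and 28.7% higher. GREM1 fell by 0.33 ± 0.08 on the log2 scale (adjusted p = 0.00107), BAMBI by 0.17 ± 0.05 (adjusted p = 0.00928) and BMP4 by 0.19 ± 0.05 (adjusted p = 0.00266). All 3 calls passed the threshold in all 9 alternatives tried and without any single library. BMP7, at 0.12 ± 0.06 (adjusted p = 0.069), passed as higher with library totals (0.15, adjusted p = 0.0304), loess offsets (0.17, adjusted p = 0.0223) and a replicate block (0.12, adjusted p = 0.049), and had the opposite sign with the factors of the peaks (-0.16). Without belinostat replicate 1 there were 6 calls instead of 3, 1 higher and 5 lower.

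**Figure D1:**
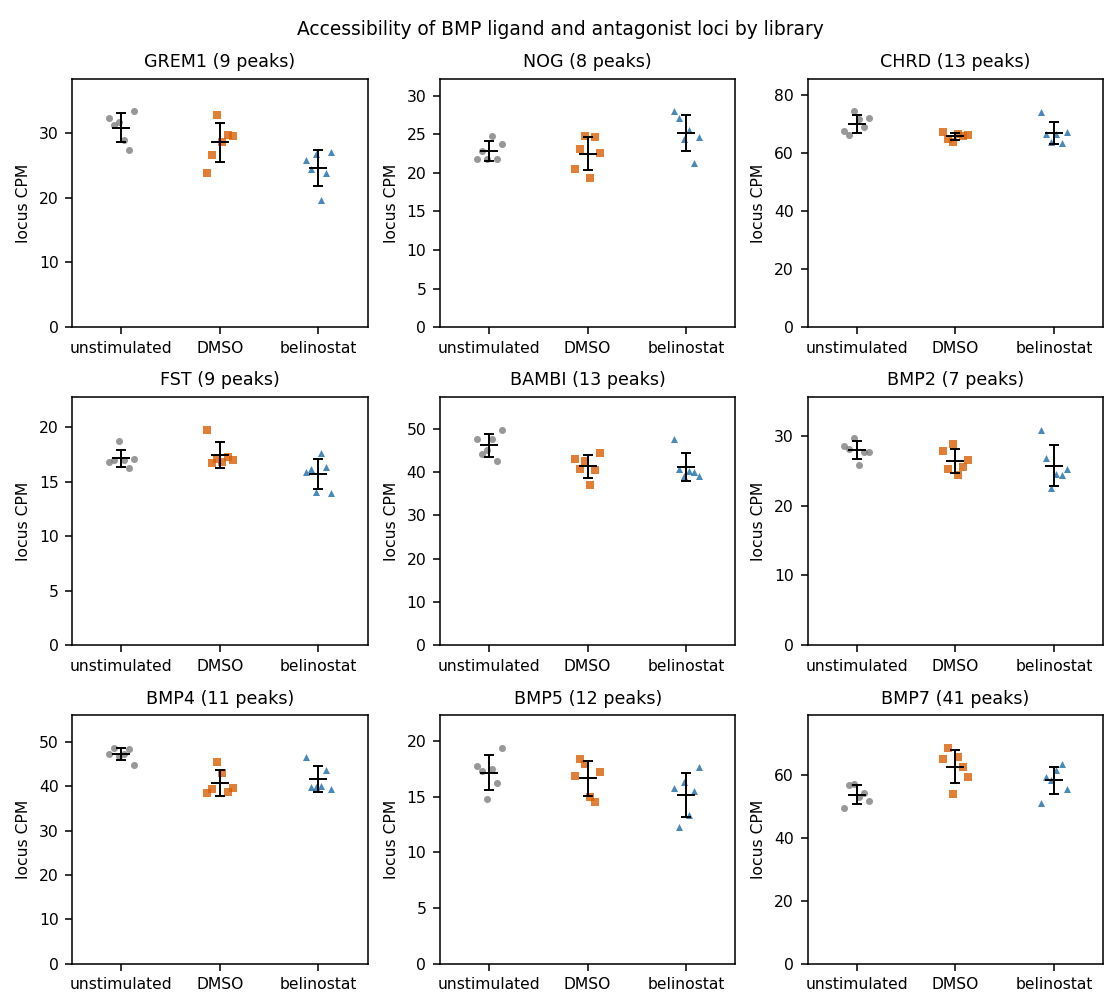
Summed accessibility of the 9 loci in CPM (each y axis starts at 0) for 6 libraries per group; points are libraries, and black marks give the mean with its SD. GREM1 lies between 27.4 and 33.4 in unstimulated and between 19.6 and 27.1 in belinostat libraries, and BMP7 has a higher median in DMSO (63.6) than in unstimulated cells (53.5).

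Over the 123 peaks, 6 opened and 18 closed in the cytokine contrast, or 4.88% and 14.6%, beside 9.51% and 9.73% of all peaks. The median log2 fold change of the members was -0.07, against 0.13 over all peaks. Member peaks were stronger than most, with a median average log2 CPM of 0.77 against 0.20, and 67.5% of them belonged to the stronger 50% of the table. Within that stronger 50%, 18 of 83 member peaks closed, beside 19.2% of all peaks, and the medians were -0.19 and -0.15. So the members' share of closed peaks was near that of other strong peaks.
In this contrast the direction of change depended on the strength of a peak throughout the table: the median was -0.15 in the stronger 50% of peaks and 0.51 in the weaker 50%. Offsets fitted by loess, which remove such a trend in each library, left 6 member calls, 2 opened and 4 closed, beside 2% and 1.9% of all peaks, and 5 of these 6 were among the 24. Whether the trend belongs to the cells or to the libraries was not tested. Dividing by library totals gave 11 opened and 8 closed member peaks, beside 16.2% and 3.25% of all.

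In the belinostat contrast 1 member peak opened and 6 closed, or 0.813% and 4.88%, beside 0.607% and 1.75% of all peaks; within the stronger 50% the share closed was 3.45% of all peaks and 6 of 83 members. The median was -0.08 over the members and 0.01 over all peaks. Of the 6 closed peaks 2 belonged to GREM1 and 1 each to BMP4, BMP5, BMP7 and CHRD. All but the BMP5 peak also closed with loess offsets, where 2 members opened and 5 closed beside 0.945% and 1.51% of all peaks. With TMM factors taken from the weaker 50% of peaks none of the 123 passed the threshold in edgeR (21 had an unadjusted p under 0.05, 19 of them lower), while DESeq2 with its own size factors called 6, all closed. Over all peaks, the weaker-50% factors in edgeR called 0.101% open and 0.993% closed. DESeq2 called 1081 open and 5729 closed of 334857.

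**Figure D2:**
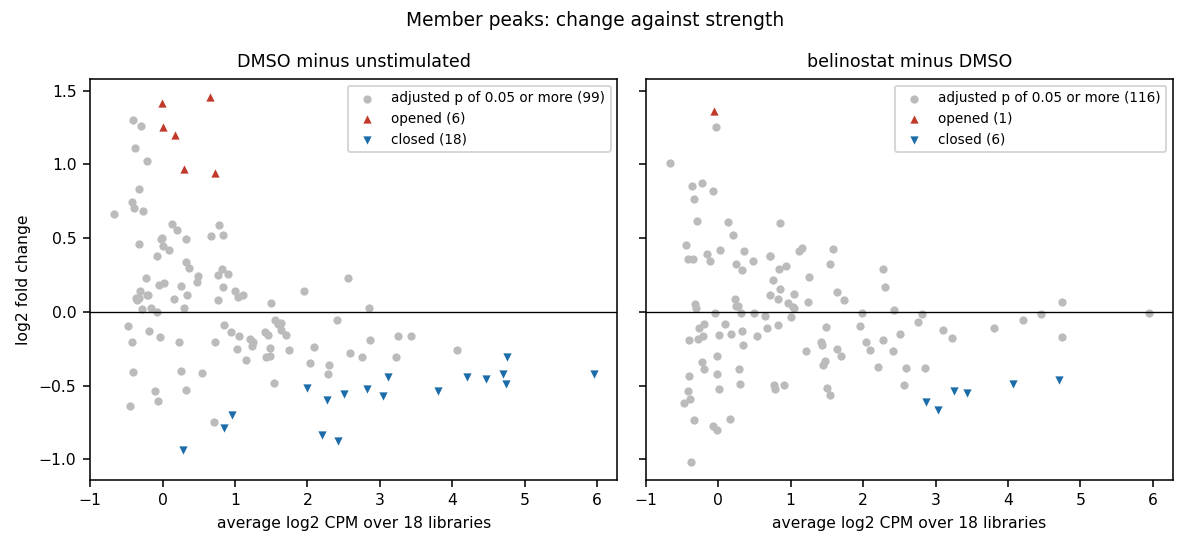
Log2 fold change of each of the 123 member peaks against its average log2 CPM over 18 libraries, for the cytokine contrast (left) and the belinostat contrast (right). The 18 peaks closed in the cytokine contrast and the 6 closed in the belinostat contrast all belong to the stronger 50% of the table, as do 3 of the 6 opened in the cytokine contrast, while the 1 opened in the belinostat contrast does not.

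GREM1 encodes gremlin 1, a secreted antagonist of BMP2 and BMP4. Its body and the 20 kb on either side hold no other protein-coding gene, but the antisense transcript GREM1-AS1 starts within 1 kb of the peaks at its start, and ATAC-seq assigns an open site to neither of them. Its 9 peaks, which are all described here, fell into an upstream group between -19.1 and -8.2 kb and a group at the start between -2.3 and +1.0 kb. Calls in the cytokine contrast fell in the first group and belinostat closings in the second; the difference between the groups was not tested.
Of the upstream peaks 3 closed in the cytokine contrast. The -13.3 kb peak (chr15:32704315-32705101) held 5.59, 7.66 and 8.21 CPM (lowest, median, highest) in unstimulated cells, 2.55, 3.89 and 5.83 in DMSO cells and 2.29, 4.66 and 5.21 in belinostat cells. Its DMSO range overlapped the unstimulated range by 1 library on each side. The change was -0.87 ± 0.17 in the cytokine contrast (adjusted p = 7.46e-05) and 0.01 ± 0.19 in the belinostat contrast (adjusted p = 0.983), and the first call held in all 9 alternatives, with loess offsets (adjusted p = 0.00874) included.
The weaker -12.7 kb peak, whose sequence is given above, fell by 0.93 ± 0.34 on the log2 scale (adjusted p = 0.0369), and the -11.1 kb peak by 0.70 ± 0.25 (adjusted p = 0.0356). Neither call was firm. The first was lost without unstimulated replicate 1, 2 or 6 or DMSO replicate 2, 5 or 6 (adjusted p from 0.0521 to 0.117), and the second without unstimulated replicate 1, 4, 5 or 6 or DMSO replicate 1 or 2 (adjusted p from 0.0507 to 0.132). Both were lost with library totals (adjusted p = 0.121 and 0.158), with TMM over peak counts summed in 10 kb bins (adjusted p = 0.0519 and 0.0541) and in DESeq2 (adjusted p = 0.113 and 0.12). With loess offsets the -12.7 kb peak kept its call (-1.23, adjusted p = 0.0179) and the -11.1 kb peak did not (adjusted p = 0.0717).

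At the GREM1 start 2 peaks closed in the belinostat contrast. The promoter peak at -0.2 kb (chr15:32717460-32718110) held 6.84, 7.95 and 10.5 CPM in unstimulated cells, 6.36, 7.09 and 10.2 in DMSO cells, and 3.58, 4.93 and 5.82 in belinostat cells. Every belinostat library was below every other library, and DMSO replicate 3 was the highest of its group. The change was -0.19 ± 0.14 in the cytokine contrast (adjusted p = 0.35), -0.61 ± 0.16 in the belinostat contrast (adjusted p = 0.0148) and -0.80 ± 0.16 between belinostat and unstimulated cells (adjusted p = 2.64e-05).
The stronger peak at -2.3 kb (chr15:32715335-32716086) held 16.8, 19.1 and 25.6 CPM in unstimulated cells, 13.2, 16.8 and 21.4 in DMSO cells, and 9.44, 12.5 and 14.0 in belinostat cells. All belinostat libraries were below all unstimulated ones, while they overlapped the lower end of the DMSO range. The change was -0.26 ± 0.12 in the cytokine contrast (adjusted p = 0.105), -0.49 ± 0.13 in the belinostat contrast (adjusted p = 0.0152) and -0.75 ± 0.13 between belinostat and unstimulated cells (adjusted p = 9.54e-07).
Both belinostat calls held in 8 of 9 alternatives, with loess offsets (adjusted p = 0.0299 and 0.0316) included, and both were lost with the factors of the weaker 50% of peaks, where the fold changes were larger, at -0.74 (adjusted p = 0.0788) and -0.61 (adjusted p = 0.138). The falls between belinostat and unstimulated cells did not pass with loess offsets, at -0.40 for the -0.2 kb peak (adjusted p = 0.053) and -0.23 for the -2.3 kb peak (adjusted p = 0.091). The belinostat calls also rested on single libraries. The -0.2 kb call was lost without DMSO replicate 3 (-0.50, adjusted p = 0.11) or belinostat replicate 4 (adjusted p = 0.0693), and the -2.3 kb call without DMSO replicate 2, 3 or 6 or belinostat replicate 2 or 4 (adjusted p from 0.059 to 0.0992).

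The remaining GREM1 peaks were smaller. Those at +0.5 kb and +1.0 kb had belinostat contrasts of -0.30 ± 0.22 (adjusted p = 0.503) and -0.26 ± 0.19 (adjusted p = 0.523), the same sign as the -0.2 kb peak, and the -8.2 kb peak had 0.34 ± 0.31 (adjusted p = 0.595). The -19.1 kb peak opened by 1.37 ± 0.41 (adjusted p = 0.0447) from 2 to 12 fragments per library, and was called in 3 of 8 alternatives. That call was lost without any of 10 libraries (DMSO replicates 1, 2, 3, 4 and 6 and belinostat replicates 1, 2, 3, 5 and 6, adjusted p up to 0.192).
A ratio within each library does not change with a scaling factor per library, though it would with loess offsets, which differ between the peaks of a library. The fragments at -2.3 and -0.2 kb divided by those of the 3 peaks between -13.3 and -11.1 kb gave 2.18, 2.66 and 3.33 (lowest, median, highest) in unstimulated cells, 2.54, 4.51 and 6.11 in DMSO cells, and 2.03, 2.64 and 4.19 in belinostat cells. The ratio had its highest median in DMSO cells, and all 3 groups overlapped. It was set up after the values of these peaks were seen and is a description without a test.

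**Figure D3:**
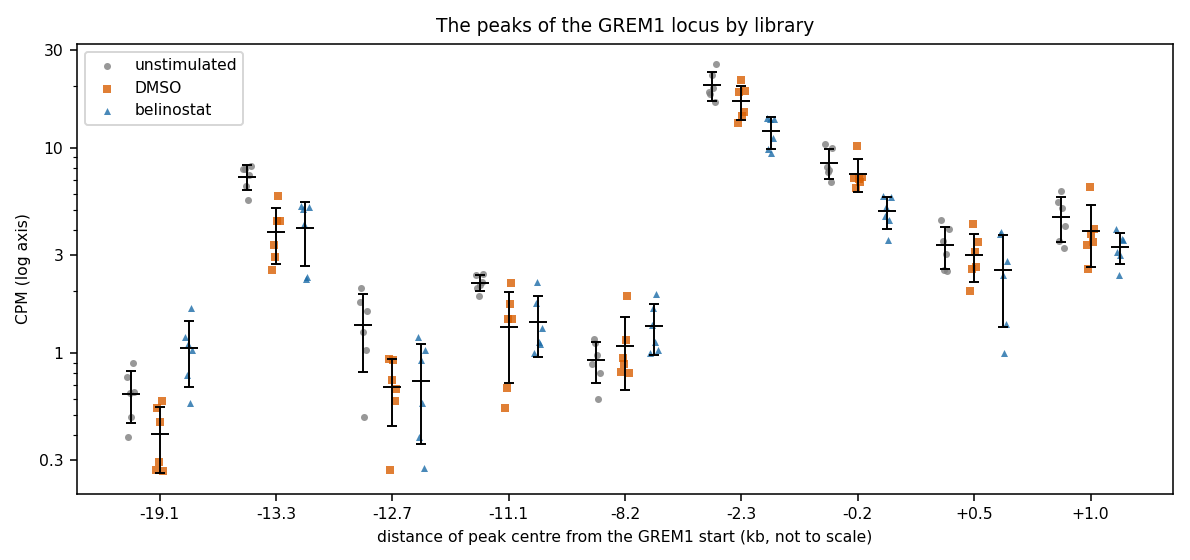
Accessibility of the 9 GREM1 peaks in CPM (log axis) for 6 libraries per group, ordered along the gene; points are libraries, and black marks give the mean with its SD. At -13.3 kb the DMSO and belinostat medians (3.89 and 4.66) lie below the unstimulated median (7.66), whereas at -0.2 kb the DMSO median (7.09) stays near the unstimulated one (7.95) and all belinostat libraries lie lower, at 3.58 to 5.82.

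NOG encodes noggin, and its promoter peak (chr17:56592565-56594857) held 25.1, 29.7 and 36.9 CPM in unstimulated, 19.6, 24.4 and 30.1 in DMSO and 21.5, 24.7 and 33.3 in belinostat cells. The 3 groups overlapped widely. The cytokine contrast was -0.30 ± 0.11 (adjusted p = 0.0407). That call was lost without unstimulated replicate 1, 3, 4 or 6 or DMSO replicate 1, 4 or 5 (adjusted p from 0.0547 to 0.165). It was also lost with library totals (-0.09, adjusted p = 0.416), TMM over 10 kb bins (adjusted p = 0.0737) and DESeq2 (adjusted p = 0.105). Loess offsets turned the sign of the contrast, to 0.07 (adjusted p = 0.563). With those offsets the peak was called open in the belinostat contrast (0.25, adjusted p = 0.0311), where TMM scaling gave 0.07 ± 0.12 (adjusted p = 0.8).

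CHRD encodes chordin. Its window also holds CLCN2, POLR2H and THPO and the noncoding LINC02054, so several of its 13 peaks lie at starts of other genes; the -17.5 kb peak, the strongest of all member peaks, covers the starts of CLCN2 and POLR2H. In the cytokine contrast 3 of the 13 closed and 2 opened. The falls were -0.42 ± 0.10 at -17.5 kb (adjusted p = 0.00207), -0.60 ± 0.17 at -8.3 kb (adjusted p = 0.00721) and -0.79 ± 0.27 at -6.3 kb (adjusted p = 0.0296), and the rise at +11.5 kb was 0.97 ± 0.34 (adjusted p = 0.0298). Loess offsets ended the first 2 of these falls and the rise. Library totals ended the calls at -8.3 and -6.3 kb, and DESeq2 those at -6.3 and +11.5 kb, the latter also lost with the weaker-50% factors. The -6.3 kb call was also lost without unstimulated replicate 1, 3, 4 or 6 or DMSO replicate 1 or 6 (adjusted p up to 0.0813), and the +11.5 kb call without unstimulated replicate 6 or DMSO replicate 4 or 5 (adjusted p up to 0.0975). The chordin promoter peak at +0.4 kb (chr3:184379881-184381103), which also overlaps THPO, passed the threshold neither in the cytokine contrast (-0.31 ± 0.14, adjusted p = 0.097) nor in the belinostat contrast (-0.18 ± 0.15, adjusted p = 0.566). Its fall between belinostat and unstimulated cells (-0.48 ± 0.14, adjusted p = 0.00659) was lost with loess offsets and with library totals.
The +19.5 kb peak (chr3:184399271-184399863), at the start of LINC02054, held 10.6, 12.0 and 15.9 CPM in unstimulated, 8.89, 11.5 and 12.0 in DMSO and 5.68, 7.5 and 9.43 in belinostat cells. The DMSO and belinostat libraries overlapped at their edges only. It closed in the belinostat contrast by 0.55 ± 0.14 on the log2 scale (adjusted p = 0.0112), and this call was lost without belinostat replicate 5 (adjusted p = 0.0704).
At +29.5 kb (chr3:184409301-184409854), inside LINC02054, accessibility rose from 0.39, 0.487 and 1.14 CPM in unstimulated cells to 0.884, 1.82 and 2.03 in DMSO cells, and stood at 1.29, 1.61 and 2.01 in belinostat cells. Only unstimulated replicate 1 reached into the DMSO range. The cytokine contrast was 1.46 ± 0.32 (adjusted p = 0.000597), past the threshold in all 9 alternatives and without any single library, and the belinostat contrast was -0.03 ± 0.27 (adjusted p = 0.968).

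FST encodes follistatin. Of its 9 peaks the one at +1.4 kb (chr5:53481921-53482229), inside the gene and within 1 kb of an annotated start, closed in the cytokine contrast. Its CPM was 5.97, 6.99 and 8.38 in unstimulated, 4.23, 4.64 and 5.75 in DMSO and 2.77, 4.36 and 6.24 in belinostat cells. Unstimulated and DMSO libraries did not overlap, and the change was -0.56 ± 0.16 (adjusted p = 0.00665), a call lost with loess offsets (adjusted p = 0.214) and with library totals.

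BAMBI encodes the pseudoreceptor. Of its 13 peaks 4 closed in the cytokine contrast, and its promoter peak (chr10:28676791-28678020), whose upstream sequence is given above, was the strongest of them. It held 27.3, 34.3 and 39.9 CPM in unstimulated, 21.7, 23.5 and 27.6 in DMSO and 17.5, 21.1 and 28.1 in belinostat cells. The unstimulated and DMSO ranges touched only at their ends, and the change was -0.49 ± 0.11 (adjusted p = 0.000917). The upstream peak at -13.5 kb fell by 0.52 ± 0.15 (adjusted p = 0.00747). Both calls were lost with loess offsets (adjusted p = 0.375 and 0.29), and the -13.5 kb call also with library totals (adjusted p = 0.0767). Neither peak passed the threshold in the belinostat contrast (-0.17 ± 0.12 and -0.01 ± 0.16, adjusted p = 0.474 and 0.972).

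Among the ligands, BMP2 and BMP4 are bound by gremlin 1 and noggin. The BMP2 promoter peak at +0.4 kb (chr20:6767308-6768765) held 19.9, 22.1 and 25.7 CPM in unstimulated, 14.4, 15.4 and 20.0 in DMSO and 12.3, 14.5 and 23.3 in belinostat cells. All but the highest DMSO library lay below the unstimulated range, and the fall was 0.45 ± 0.12 on the log2 scale (adjusted p = 0.00464), lost with loess offsets (adjusted p = 0.578) and with library totals. The belinostat contrast was -0.06 ± 0.12 (adjusted p = 0.849).

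BMP4 has an annotated long transcript that starts several kilobases upstream of the RefSeq starts, so that its main promoter peak carries the label +5.0 kb (chr14:53953169-53954253). This peak held 25.3, 26.2 and 29.5 CPM in unstimulated, 17.1, 18.1 and 26.7 in DMSO and 15.7, 19.4 and 22.5 in belinostat cells. DMSO replicate 3 alone reached the unstimulated range. The cytokine contrast was -0.46 ± 0.11 (adjusted p = 0.00247), lost with loess offsets (adjusted p = 0.516), and the belinostat contrast was -0.02 ± 0.12 (adjusted p = 0.958).
The peak upstream of BMP4 at -10.2 kb (chr14:53968585-53969275) closed in both contrasts. It held 9.91, 11.3 and 12.5 CPM in unstimulated, 6.5, 7.51 and 8.7 in DMSO and 2.93, 4.69 and 6.37 in belinostat cells. None of the 3 groups overlapped with another. The change was -0.57 ± 0.14 in the cytokine contrast (adjusted p = 0.00179), -0.66 ± 0.16 in the belinostat contrast (adjusted p = 0.00568) and -1.23 ± 0.15 between belinostat and unstimulated cells (adjusted p = 1.75e-11).
No single library decided any of these 3 calls. Loess offsets removed the cytokine call (adjusted p = 0.16) and left the belinostat call (-0.54, adjusted p = 0.0143) and the fall between belinostat and unstimulated cells (-0.81, adjusted p = 2.14e-06), while factors from the weaker 50% of peaks left the belinostat value just past 0.05 (adjusted p = 0.0556).

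BMP5 had no peak within 1 kb of an annotated start, and its 12 peaks lay elsewhere in the locus. The intronic peak at +49.7 kb (chr6:55825493-55826255) held 5.3, 6.65 and 7.13 CPM in unstimulated, 1.88, 3.65 and 4.95 in DMSO and 2.0, 2.89 and 3.51 in belinostat cells. Every unstimulated library was above every other library. It closed in the cytokine contrast by 0.84 ± 0.17 on the log2 scale (adjusted p = 0.000159), in all 9 alternatives and without any single library, and the belinostat contrast was -0.38 ± 0.20 (adjusted p = 0.346).
Another BMP5 peak, at +116.7 kb (chr6:55758521-55759186) over an annotated exon, closed in the belinostat contrast. It held 9.07, 10.2 and 14.5 CPM in unstimulated, 6.58, 9.79 and 12.7 in DMSO and 5.27, 6.47 and 8.74 in belinostat cells, with DMSO and belinostat overlapping. Its belinostat contrast was -0.53 ± 0.15 (adjusted p = 0.0278). That call was lost with loess offsets and without DMSO replicate 2, 3 or 6 or belinostat replicate 2, 4 or 5 (adjusted p from 0.0612 to 0.149).

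BMP7 gave 4 of the 6 peaks that opened in the cytokine contrast. Its promoter peak at +0.1 kb (chr20:57266066-57266972) was weak, at 2.38, 3.47 and 4.28 CPM in unstimulated, 3.11, 3.81 and 4.37 in DMSO and 2.61, 3.27 and 4.99 in belinostat cells, and the groups overlapped throughout. The opened peaks lay in the gene at +90.9, +84.9, +42.4 and +22.5 kb. All 4 calls were lost with loess offsets and with the weaker-50% factors. The +84.9 kb call was also lost without DMSO replicate 1 (adjusted p = 0.0603) and the +42.4 kb call without DMSO replicate 2 (adjusted p = 0.109). The +22.5 kb call was lost without unstimulated replicate 6 or DMSO replicate 1 (adjusted p up to 0.0845). At +90.9 kb the level went from 0.13, 0.394 and 0.797 CPM to 0.737, 1.05 and 1.21 (log2 fold change 1.25 ± 0.40, adjusted p = 0.0191), and this call was lost without unstimulated replicate 2 (adjusted p = 0.056) and under loess offsets (adjusted p = 0.182).
The strongest BMP7 peak closed in both contrasts. At +98.0 kb (chr20:57168060-57169221), over the last exon, it held 31.7, 32.3 and 38.2 CPM in unstimulated, 22.6, 24.5 and 27.6 in DMSO and 14.0, 18.7 and 23.7 in belinostat cells. The unstimulated libraries stood above all others, and 1 belinostat library reached into the DMSO range. The change was -0.43 ± 0.11 in the cytokine contrast (adjusted p = 0.00348), -0.46 ± 0.12 in the belinostat contrast (adjusted p = 0.00964) and -0.89 ± 0.11 between belinostat and unstimulated cells (adjusted p = 1.26e-10). Without belinostat replicate 4 the belinostat value had an adjusted p of 0.0509. With loess offsets the cytokine call was lost (adjusted p = 0.756), while the fall between belinostat and unstimulated cells held (-0.33, adjusted p = 0.000552).

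**Figure D4:**
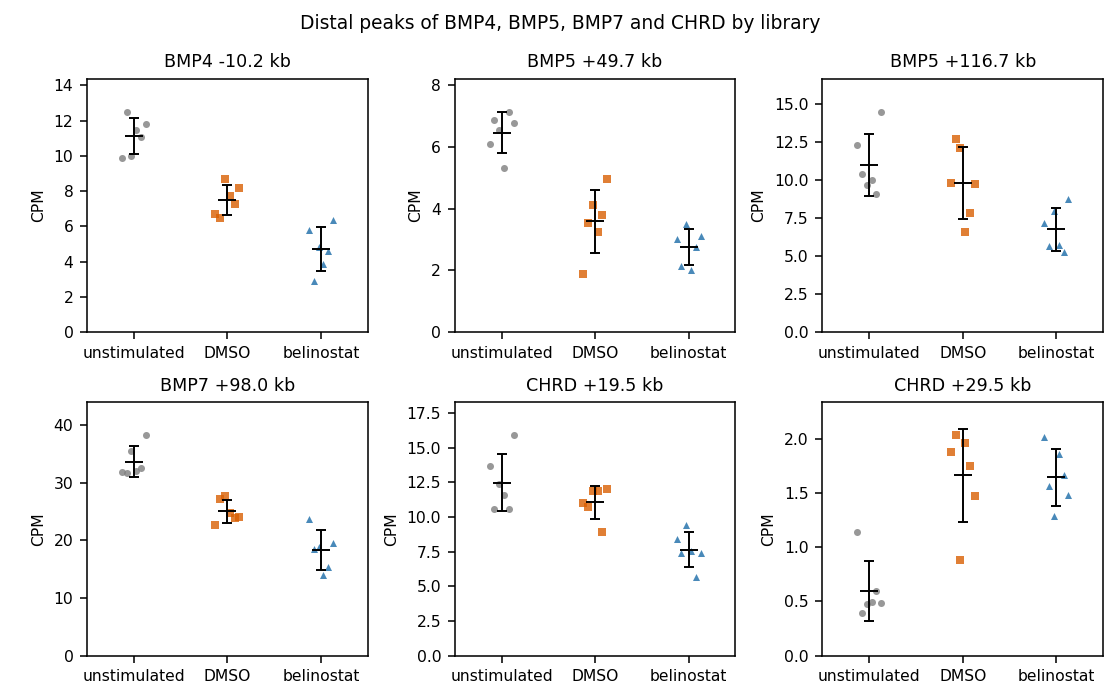
Accessibility of 6 peaks away from the starts of BMP4, BMP5, BMP7 and CHRD in CPM (each y axis starts at 0) for 6 libraries per group; points are libraries, and black marks give the mean with its SD. BMP4 -10.2 kb has 3 separate ranges (9.91 to 12.5, 6.5 to 8.7 and 2.93 to 6.37), BMP5 +49.7 kb lies lower in DMSO (1.88 to 4.95) than in unstimulated cells (5.3 to 7.13), and CHRD +29.5 kb lies between 0.884 and 2.03 in DMSO and between 0.39 and 1.14 in unstimulated cells.

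Between belinostat and unstimulated cells 11 member peaks were more open and 26 less open, or 8.94% and 21.1%, beside 16.8% and 13.7% of all peaks. Within the stronger 50% of peaks 26 of 83 members were less open, beside 27% of all. GREM1 contributed 6 of the 26, BAMBI 5 and BMP4 4, and BMP7 gave 6 of the 11 that were more open. BMP7 +24.6 kb was more open (1.205, adjusted p = 0.0112) and BMP2 +13.3 kb less open (-0.663, adjusted p = 0.00115). Loess offsets ended both calls. The first was also lost with the weaker-50% factors and without belinostat replicate 4 (adjusted p = 0.0976), the second with library totals. FST +1.4 kb (-0.71), BAMBI -0.1 kb (-0.656), BMP5 +49.7 kb (-1.215) and CHRD +29.5 kb (1.428) also passed (adjusted p up to 0.00039). Loess offsets ended the first 2 of these. With loess offsets 3 peaks were more open and 7 less open, beside 3.82% and 4.92% of all peaks. Among the 7 were GREM1 -13.3 and -12.7 kb, BMP4 -10.2 kb, BMP5 +49.7 kb and BMP7 +98.0 kb. The 3 were CHRD +29.5 kb (1.244, adjusted p = 0.00709), CHRD -17.5 kb (0.21, adjusted p = 0.00218) and the NOG promoter peak (0.32, adjusted p = 0.000496). The last 2 had the opposite sign with TMM. There CHRD -17.5 kb was called less open (-0.43, adjusted p = 0.000646) and the NOG promoter peak was at -0.24 (adjusted p = 0.0968).

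By position, of the 24 peaks within 1 kb of an annotated start 7 closed and 2 opened in the cytokine contrast, and of the 27 upstream peaks 9 closed and none opened. Of the 31 intronic peaks 1 closed and 2 opened, and of the 37 downstream peaks none closed and 2 opened. Over all peaks 9.51% opened and 9.73% closed; the shares over all peaks of the same position were not computed, so nothing is read from these counts. Intronic and downstream peaks were also weaker, with median average log2 CPM of 0.49 and 0.16 against 1.98 for promoter and 0.96 for upstream peaks. AP-1 words stood in 18.7% of member windows and 17.8% of all windows, RUNX words in 26.8% and 22.6%, and GC-rich SMAD words in 8.13% and 4.72%, which are 10 member windows.

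Across the 18 libraries the loci whose level moved most like that of GREM1 were CASS4, CAVIN1, RALA, VAMP8 and RAB11B. Likeness was the mean absolute difference of the log2 CPM, each locus set to its own mean, and lay between 0.066 and 0.068 for these 5, against a median of 0.209 over 12526 loci compared. The measure includes the differences between the groups and the noise of each library.

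The other genes of the pathway were read as loci from a list of 43, of which 42 had peaks. In the cytokine contrast 4 were higher and 16 lower, with a median of -0.07 against -0.01 over all loci, of which 21% were higher and 15.9% lower. This split moved with the scaling, to 5 higher and 8 lower with library totals, 2 and 8 with loess offsets, and 1 and 32 with the factors of the peaks. BMP3, a ligand that opposes other BMPs, rose by 0.46 ± 0.10 (adjusted p = 0.00134), SOSTDC1, an antagonist, by 0.45 ± 0.16 (adjusted p = 0.0303), and BMPR1B, a type I receptor, by 0.27 ± 0.06 (adjusted p = 0.00209), a call lost with the scaling factors of the peaks. The largest falls were in SMAD6 (-0.25 ± 0.04, adjusted p = 0.000191), SMAD7 (-0.22 ± 0.04, adjusted p = 0.000241) and ACVR2A (-0.22 ± 0.07, adjusted p = 0.0177). SMAD6 and SMAD7 are inhibitors inside the cell, and ACVR2A is a type II receptor, whose call was lost without unstimulated replicate 1 (adjusted p = 0.0538). The SOSTDC1 call was lost without unstimulated replicate 1, 3 or 6 or DMSO replicate 1, 2, 4 or 6 (adjusted p up to 0.0741), and it and the BMP3 call were lost with loess offsets. SOSTDC1 also lost its call with the scaling factors of the peaks and with the gene body and 3 kb upstream.

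In the belinostat contrast 5 of the 42 loci were higher and 2 lower, beside the 2.63% and 5.38% of all loci given above. SMAD7 moved most, from 108, 112 and 118 CPM in DMSO to 128, 134 and 153 in belinostat cells, with unstimulated cells at 129, 131 and 135. No belinostat library overlapped the DMSO range, and the change was 0.27 ± 0.04 (adjusted p = 9.86e-05), or 0.06 ± 0.04 against unstimulated cells (adjusted p = 0.19). SMAD9, which carries the BMP signal, rose by 0.20 ± 0.05 (adjusted p = 0.0211), and the target gene ID3 by 0.18 ± 0.04 (adjusted p = 0.0108).
The rises of SMURF1, a ubiquitin ligase for SMADs, and of the target ID2 were smaller (0.15 ± 0.04 and 0.13 ± 0.04, adjusted p = 0.0198 and 0.0482). SMURF1 lost its call without belinostat replicate 3 (adjusted p = 0.054), and ID2 kept its call only without DMSO replicate 3 or belinostat replicate 5 (adjusted p up to 0.112 without another library). The 2 loci that fell were ENG, a co-receptor (-0.13 ± 0.03, adjusted p = 0.01), and BMPER, a secreted BMP regulator (-0.12 ± 0.04, adjusted p = 0.0339). BMPER lost its call without DMSO replicate 2, 3 or 6 or belinostat replicate 2, 3, 4 or 5 (adjusted p up to 0.0919). With the scaling factors of the peaks none of the 5 rises passed the threshold. The calls of ID3, SMURF1 and ID2 were also lost when only peaks in the gene body and the 3 kb upstream were counted. SMURF1 and ID2 lost theirs with only the 2 groups compared as well. With loess offsets neither fall passed, and 6 loci were higher and 0 lower. The BMPER call was also lost with library totals, with the factors of the peaks and with only the 2 groups compared.

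**Figure D5:**
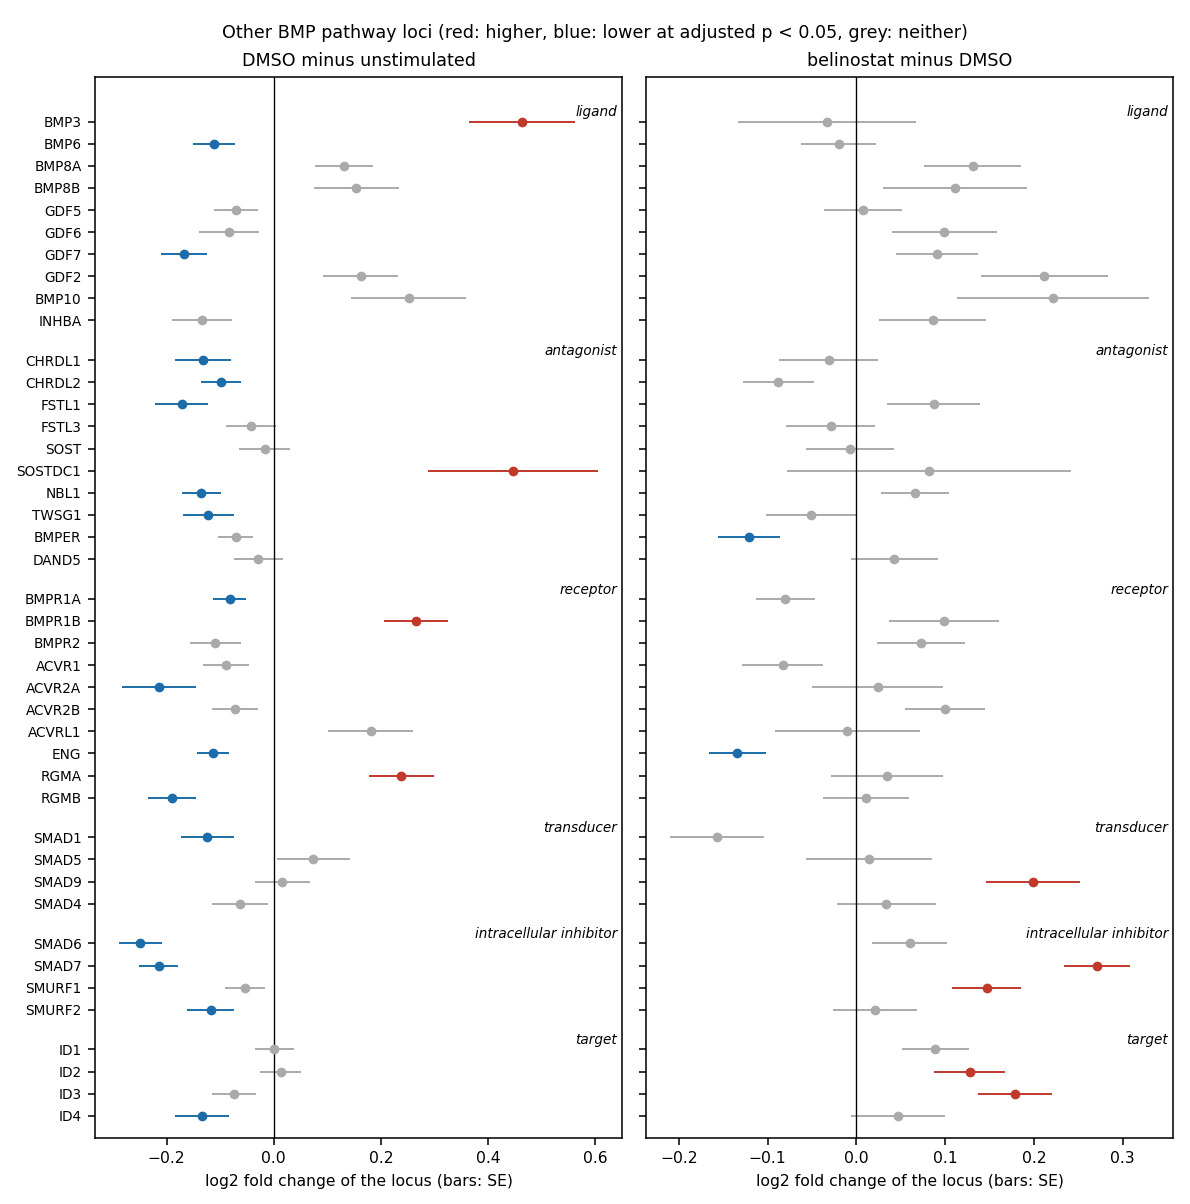
Log2 fold change of 42 other BMP pathway loci with its SE, by role, in the cytokine contrast (left) and the belinostat contrast (right; the axes differ in range). SMAD7 lies at -0.22 on the left and at 0.27 on the right, and the 3 loci with the largest called rises on the left are BMP3, SOSTDC1 and BMPR1B.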

How the data were processed

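The deposited values are counts of fragments, not normalized, for each peak and library. The authors used the ENCODE ATAC-seq pipeline to align trimmed reads to hg38, took out duplicates and reads of the mitochondrial genome (per the file headers), found peaks with MACS2, joined the peaks of the conditions into a common set and ran csaw to count its fragments; the submitters' processing notes also name ChIPseeker 1.34.1. Doses follow the labels; the study's text gives another concentration of belinostat and, in places, of IL-1B. Starts in the table count from 0 and were raised by 1.

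Groups were taken from the sample titles. Peaks with an average log2 CPM over -3 (all 334857) were fitted in edgeR 4.0.16 (R 4.3.3) by the quasi-likelihood test with TMM factors, 1 mean per group over 18 libraries and Benjamini-Hochberg adjustment over all peaks. Gene loci were sums over GENCODE 44 gene bodies with 20 kb on either side, so a peak can count in several loci. DESeq2 1.42.0, other scalings, filters and windows, a replicate block and leaving out each library were alternatives. Named were each locus, its main promoter peak, every peak called in the belinostat contrast, and per locus the called peak with the largest change and an average log2 CPM of at least 0 in each other contrast; all GREM1 peaks and further called peaks were named after their values were seen. Of the pathway list 1 gene is not reported here. The members, the lists and the words were chosen with earlier results of these data known. The script was tested on simulated data. Intervals and tests cover the spread between libraries; depths of 4661678 to 11352032 counts limit the precision of weak peaks. The closest pair, unstimulated replicates 3 and 4, differed by 1.024 times counting noise (chi-square test over 123236 peaks, p = 1.09e-09). The highest ratio of a pair within a group was 2.317. No libraries were merged. With so many peaks a small excess passes this test, so it cannot tell separate cultures from technical splits.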

Additional observations from a re-analysis of the deposited data

Results flagged for a closer look

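In 90 groups of 6 values (9 loci and 21 named peaks in 3 groups), 8 had a highest library whose distance from the next, divided by the range of the group, exceeded Dixon's critical value for 6 samples; chance gives about 1 in 20. Belinostat replicate 1 stood above its group at the CHRD locus (74.2 CPM, the others 63.5 to 67.5), at the BAMBI locus (47.6 CPM, the others 39.0 to 40.7) and at the BMP2 peak at +13.3 kb (7.42 CPM, the others 3.47 to 4.29). DMSO replicate 3 stood above its group at the BMP4 promoter peak at +5.0 kb (26.7 CPM, the others 17.1 to 18.7) and at the GREM1 promoter peak at -0.2 kb (10.2 CPM, the others 6.36 to 7.23). At the FST locus unstimulated replicate 3 (18.7 CPM, the others 16.3 to 17.1) and DMSO replicate 1 (19.8 CPM, the others 16.7 to 17.3) were apart, and at the CHRD peak at +29.5 kb unstimulated replicate 1 was (1.14 CPM, the others 0.39 to 0.595). Each of the 8 was the highest library of its group, and why was not tested.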

How the results depend on the processing

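Over all peaks the cytokine contrast had a median of 0.13 with TMM, 0.34 with library totals, -0.29 with TMM over the weaker 50% of peaks and 0.01 with loess offsets. Of the 123 member peaks, the weaker-50% factors called 43 in the cytokine contrast (1 opened, 42 closed), 0 in the belinostat contrast and 60 between belinostat and unstimulated cells (2 and 58), and loess offsets called 6, 7 and 10. Windows of 5 kb called 14, 4 and 22 of 77 peaks, and windows of 50 kb 44, 9 and 68 of 230. Library totals gave 22 more open and 11 less open peaks in the third contrast. Leaving out 1 library gave 17 to 27, 3 to 8 and 26 to 42 calls, and 2 to 4, 0 to 1 and 3 to 6 called loci. In the belinostat contrast 3 peaks were called without DMSO replicate 3 or belinostat replicate 4, and 4 without DMSO replicate 2 or 6 or belinostat replicate 2 or 5. With the factors of the peaks 8, 1 and 8 member loci were called; loci of the gene body and 3 kb upstream gave 1 in the belinostat contrast, and loess offsets gave 7 in the third. Replicate numbers did not pair the libraries (correlations of same-numbered deviations from -0.195 to 0.155, best with the own number in 1, 0 and 2 of 6), and a replicate block called 26, 6 and 39 peaks and 3, 0 and 4 loci. The sign turned for 16 of 611 values of named loci and peaks under these alternatives and for 11 of 1224 without 1 library. In the cytokine contrast the first were the loci GREM1 (0.013) and CHRD (0.052) with the body and 3 kb upstream, FST with peak factors (-0.174), loess offsets (-0.096) and the short window (-0.011), and the NOG promoter peak with loess offsets (0.072). In the belinostat contrast they were the loci CHRD (-0.046 with peak factors, -0.067 with the short window), BAMBI (0.007 with library totals), BMP2 (0.037 with the short window) and BMP4 (-0.049 with peak factors). In the third contrast they were the loci NOG (-0.139) and BMP7 (-0.157) with peak factors and CHRD (0.002) with loess offsets, and with loess offsets the promoter peaks of BMP4 (0.075) and BMP2 (0.014). Leaving out 1 library also turned signs, with ranges of -0.058 to 0.015 for the NOG locus and -0.013 to 0.051 for the FST locus in the cytokine contrast, and of -0.005 to 0.041 for CHRD, -0.009 to 0.06 for BMP4 and -0.052 to 0.015 for BAMBI in the belinostat contrast. The cause of these changes was not tested. Of the 611 values, 514 kept direction and call. Peaks of few fragments, such as GREM1 -19.1 kb, cannot show small changes at this depth.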
